A study of Homo sapiens with 6 samples.

Results

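The genes described here are 43 interferon response and RNA-sensing genes, followed in Rh30 cells after knockdown of DDX5. They were chosen by name, by their known roles, but with earlier results of these data known. Shares of them set against all genes are therefore descriptive. They comprise sensors of foreign RNA, the factors that carry the signal, antiviral effectors, the ISG15 conjugation system and other interferon-induced genes. All 43 were found among 35580 genes to which transcripts could be joined. DDX58, the gene of the sensor RIG-I, is listed under that symbol. Of the 43, 40 had enough counts to enter the test, which covered 15223 genes in all. CMPK2, BST2 and IFI35 did not, with 1 to 15 estimated counts per library.

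Rh30 is an alveolar rhabdomyosarcoma line, labelled as positive for the PAX3-FOXO1 fusion, so all libraries come from the same line. Poly(A)-selected messenger RNA was sequenced from 3 control libraries and 3 libraries with knockdown of DDX5 by RNA interference, labelled siDDX5. DDX5 encodes a DEAD-box RNA helicase. The labels call the controls only control. They do not say whether those cells were transfected or with what, and they give neither the siRNA sequence nor the time of harvest. No library analysed here is labelled untransfected. A response to transfection that both groups share would therefore appear only as a level, and the comparison of the groups measures only what differs between them. The design text calls the replicates biological but does not say how they were separated, so p-values measure the spread between these libraries.

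Cells detect RNA that looks foreign through RIG-I and MDA5 in the cytoplasm and TLR3 in endosomes, while the kinase PKR stops translation when it binds double-stranded RNA. RIG-I and MDA5 signal through MAVS and the kinase TBK1 to IRF3, which switches on type I interferon. Secreted interferon acts through its receptor, the kinases JAK1 and TYK2 and a complex that includes STAT2 and IRF9, which binds the interferon-stimulated response element in front of genes such as IFIT1, MX1 and ISG15. Long or triphosphate-bearing synthetic RNA can trigger this chain, which is why these genes are used to look for a sensing response in siRNA experiments.

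The targeted gene matched the labels. DDX5 was at 1352, 1434 and 1137 CPM (counts scaled to a common library total) in control replicates 1, 2 and 3 and at 549, 504 and 396 CPM in siDDX5 replicates 1, 2 and 3. It fell by 1.44 on the log2 scale (SE 0.15, edgeR adjusted p = 0.0106). Libraries held 21265569 to 26156858 estimated counts in control and 18202402 to 19971888 in siDDX5, so depth differed with the group. The detection floor used, 3 counts, was 0.115 to 0.165 CPM. Markers of the myogenic tumour line summed to 897 to 1201 TPM in control and 861 to 937 TPM in siDDX5. Summed immune markers were 18.4 to 21.2 TPM in control and 12.8 to 14.9 TPM in siDDX5, mostly CD68, with CD3E at 3 counts or fewer in every library. CD14, of the same list, went the other way, at 0.371 to 0.509 CPM in control and 0.704 to 1.09 CPM in siDDX5, without overlap. Endothelial markers summed to 5.47 to 7.27 TPM in control and 4.48 to 6.37 TPM in siDDX5, and epithelial markers to 0.737 to 1.15 TPM in control and 1.196 to 1.51 TPM in siDDX5. The part of these differences, and of depth, in the results was not tested. In bulk RNA, fewer cells expressing a gene and less RNA per cell cannot be told apart.

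In neither group was the median level of the 43 genes above that of all genes tested. It was 10.5 to 13.9 TPM (a relative abundance that allows for transcript length) across the 6 libraries, against 15 to 18.1 TPM over all genes tested. Between 5 and 8 of the 43 were under 1 TPM in any library and between 22 and 26 were above 10 TPM. The highest were IFI44 with a mean of 181 TPM, EIF2AK2 with 85.3 TPM and ADAR with 66.3 TPM. Several genes that interferon raises steeply were low in every library, in control and siDDX5 alike. RSAD2, the antiviral enzyme viperin, averaged 0.431 TPM over the 6 libraries, OAS1 0.475 TPM, BST2 0.493 TPM and IFIT1 3.48 TPM. Other interferon-induced members stood higher in both groups, such as ISG15 with a mean of 17.5 TPM, IFIT3 with 14.5 TPM, OAS3 with 14.0 TPM and HERC5 with 32.6 TPM. The 43 genes together made up 936 TPM ± 19.2 (SD, n = 3) in control and 801 TPM ± 61.4 (SD, n = 3) in siDDX5. Without IFI44 the sums were 693 TPM ± 29.5 and 682 TPM ± 53.9, so most of that gap was this gene. The 8 interferon genes looked for (IFNB1, IFNA1, IFNE, IFNK, IFNG, IFNL1, IFNL2 and IFNL3) were at 0 counts in all libraries, except for 1 count of IFNE in siDDX5 replicate 3.

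**Figure D1:**
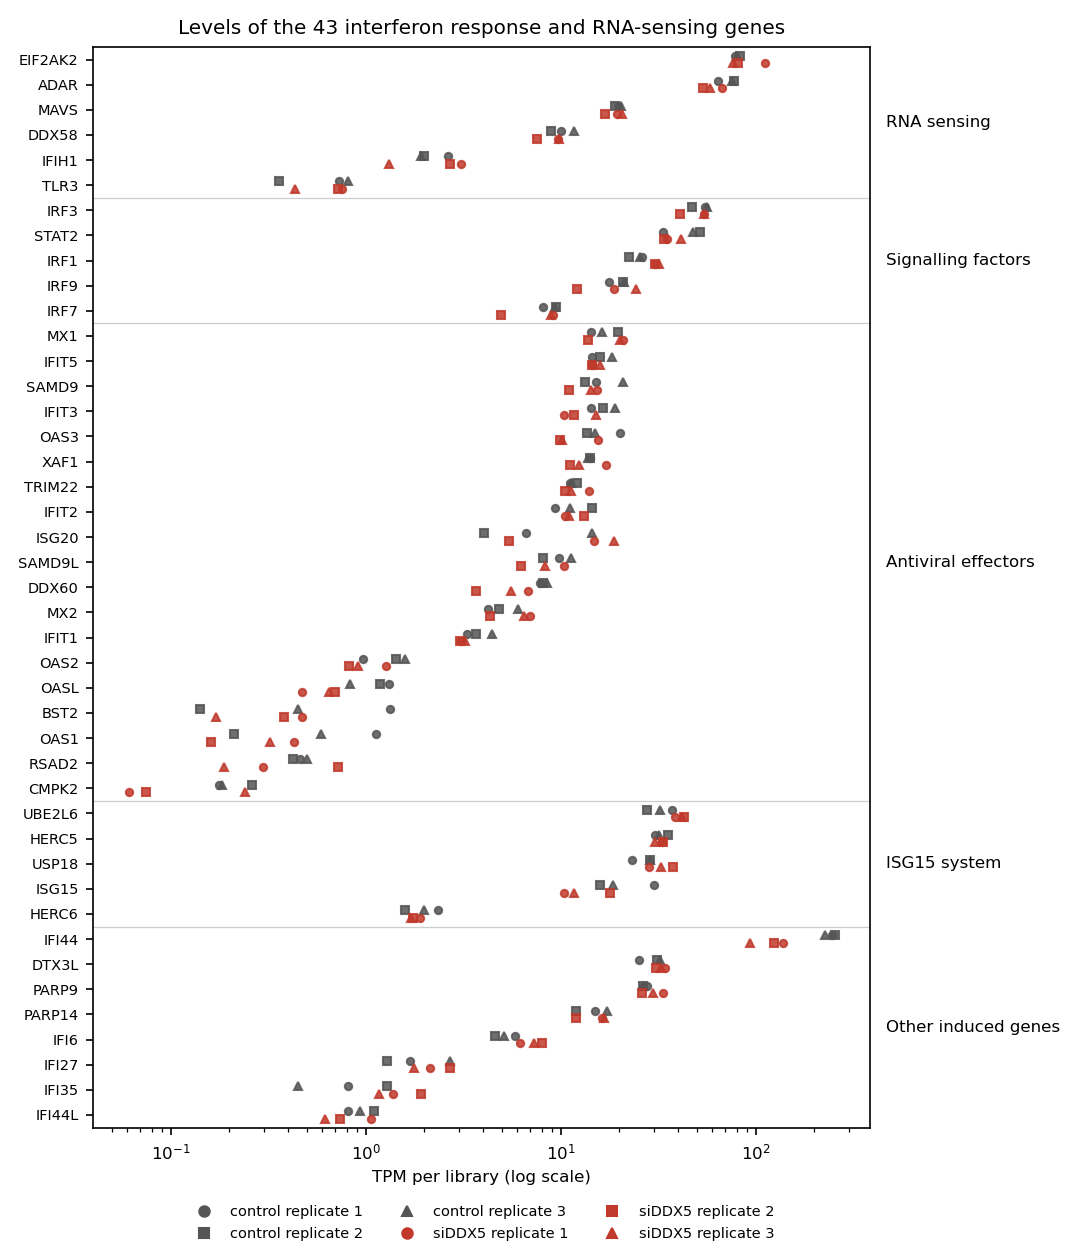
TPM of each of the 43 genes in each of the 6 libraries on a log axis, grouped by role and ordered by mean level, with control in grey and siDDX5 in red. IFI44 is the highest gene and the one whose groups stand most visibly apart, while RSAD2, OAS1, BST2 and CMPK2 lie at the low end in both groups.

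None of the 40 tested genes differed between siDDX5 and control at an adjusted p under 0.05 by edgeR's quasi-likelihood test with the group as the only term, where 0.164% of all genes tested did (0.0526% higher and 0.112% lower in siDDX5). The smallest adjusted p among them was 0.0584, for IFI44. At an unadjusted p under 0.05 there were 8 (20%), against 11.4% of all genes tested (5.37% higher and 6.0% lower). They split evenly, with EIF2AK2, IRF1, UBE2L6 and DTX3L higher in siDDX5 and OAS3, OASL, DDX60 and IFI44 lower. The median log2 fold change of the 40 was -0.05, beside 0.00 over all genes tested, with 18 positive and 22 negative values. In CPM, the measure used throughout for overlap, the groups did not overlap for 12 of the 40 (30%), against 18.1% of all genes tested. In siDDX5, 7 of them were higher and 5 lower, beside 8.86% and 9.21% of all genes tested. In TPM, the groups of EIF2AK2, ADAR, TLR3, TRIM22, PARP9, DTX3L and IFI44L did overlap. Those of IFI44, DDX60, OASL, IRF1 and IFI6 did not.

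The replicate numbers were found to pair the libraries across groups, so a fit that removes differences between the replicate numbers, called the replicate block, is given where it changes a call. With the block, 3 of the 40 (7.5%) were called, all of them lower in siDDX5, where 2.59% of all genes tested were called 1.14% higher and 1.45% lower. They were IFI44, DDX60 and OAS3. At an unadjusted p under 0.05 the blocked fit had 12, of which 6 were higher and 6 lower, against 20.5% of all genes tested (10.2% higher and 10.3% lower). None of the 40 was called higher in either fit. The calls depend on the pairs: with the block and without replicate pair 3 only IFI44 was called. Without pair 1 there were 5 calls, the same 3 genes lower and IRF1 and UBE2L6 higher in siDDX5. Without pair 2 there were 5, all lower, with ISG15 and OASL beside the 3.

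**Figure D2:**
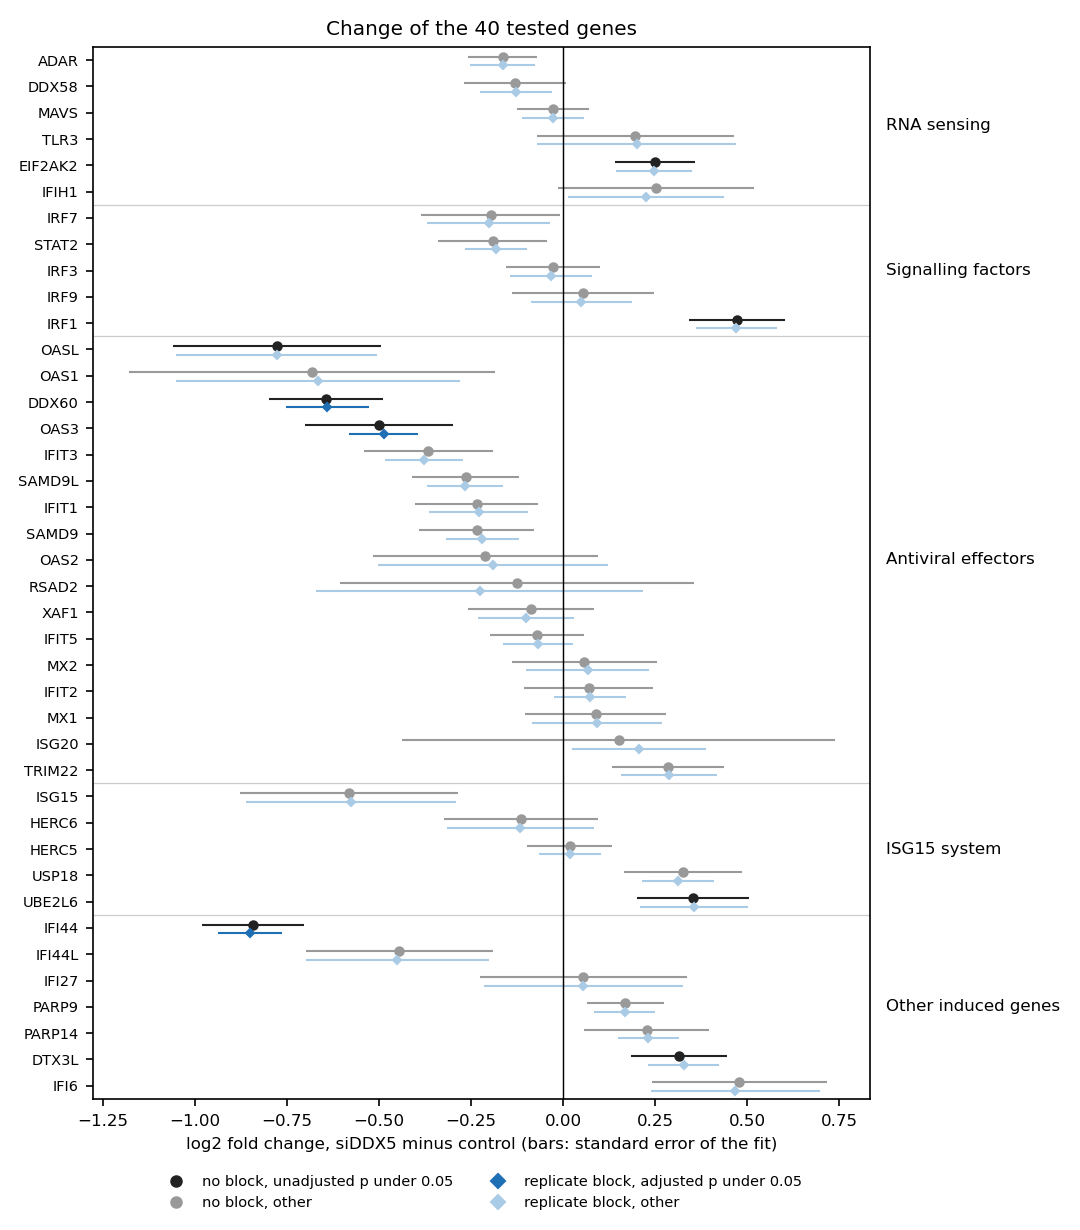
Log2 fold change of siDDX5 minus control for each of the 40 tested genes, grouped by role, with bars of 1 standard error. Circles are the fit without the replicate block (black where the unadjusted p is under 0.05) and diamonds the fit with it (dark blue where the adjusted p is under 0.05), and the only dark diamonds are IFI44, DDX60 and OAS3, all left of 0.

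Many of these genes are known to be switched on through a common control element. Promoter stretches with its letters are shown for genes the comparison turns on that hold them, and for IFIT1 and ISG15, 2 standard reporters of the response. For these reporters a single match is printed. IFIT1 has a further match at chr10:89392520-89392529 and ISG15 at chr1:1013384-1013393, so the number of lines does not compare the genes. The letters searched, on both strands, were GAAA, any 2 bases and GAAA again, the repeat at the core of the interferon-stimulated response element, in windows of 300 bases from 250 before to 50 after each RefSeq start (GRCh38.p14). Each line gives 30 bases on the strand of the gene, 5′ to 3′, with the match in capitals, so that a match on the other strand reads TTTC, 2 bases and TTTC.
IFI44, chr1:78649761-78649790, plus strand: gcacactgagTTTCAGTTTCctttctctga
DDX60, chr4:168318786-168318815, minus strand: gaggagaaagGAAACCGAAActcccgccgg
DDX60, chr4:168318821-168318850, minus strand: gtgctgaaggGAAACTGAAAcctaagtgct
OAS3, chr12:112938321-112938350, plus strand: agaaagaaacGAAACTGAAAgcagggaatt
OAS3, chr12:112938452-112938481, plus strand: agccgggcggGAAAACGAAAccagaaatcc
EIF2AK2, chr2:37156967-37156996, minus strand: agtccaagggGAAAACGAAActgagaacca
DTX3L, chr3:122564322-122564351, plus strand: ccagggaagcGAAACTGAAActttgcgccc
IFIT1, chr10:89392497-89392526, plus strand: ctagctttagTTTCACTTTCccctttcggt
ISG15, chr1:1013380-1013409, plus strand: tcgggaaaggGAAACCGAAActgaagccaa
The DTX3L match is also the match of PARP9, whose promoter runs the other way from the same place. RefSeq windows were matched for 35 of the 43 genes, 48 windows in all. Of these, 26 (54.2%) held the letters, against 3.57% of the 35116 windows of all genes. The genes were chosen for known interferon roles, so this high share follows from the choice and says nothing of these libraries. Of the 8 genes with an unadjusted p under 0.05, 5 carried it, the lower IFI44, DDX60 and OAS3 and the higher EIF2AK2 and DTX3L, while the windows of IRF1 and UBE2L6 did not and OASL had no window. Among tested genes, the 21 with the letters had a median log2 fold change of 0.02 and included IFI44, DDX60 and OAS3, and the 11 without had a median of -0.12. A match is only a match of letters in this window.

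Among the RNA sensors, no gene passed the test in either fit, and the genes leaned both ways. RIG-I itself, DDX58, was at 23.5, 20.8 and 26.9 CPM in the control replicates and at 21.8, 19.7 and 23.5 CPM in siDDX5. These values overlap, and the log2 fold change was -0.13 with a 95% interval of -0.44 to 0.18. IFIH1, which encodes the long-RNA sensor MDA5 and is itself raised by interferon, was at 3.15, 2.68 and 2.60 CPM in control and 4.15, 3.68 and 2.20 CPM in siDDX5. Its siDDX5 replicate 3 was below every control library while the other two were above them, and the interval of -0.35 to 0.85 was wide. TLR3, the endosomal sensor of double-stranded RNA, was low, at 1.15, 0.884 and 1.16 CPM in control and 1.31, 1.21 and 1.17 CPM in siDDX5. Its groups just failed to overlap, with a log2 fold change of 0.20 (SE 0.27).

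MAVS, the mitochondrial adaptor on which RIG-I and MDA5 converge, was well expressed and nearly level. It was at 179.8, 172 and 181 CPM in control and 169, 168 and 186 CPM in siDDX5, a log2 fold change of -0.03 (95% interval -0.25 to 0.19). EIF2AK2, the gene of PKR, was at 244, 273 and 268 CPM in control and 339, 310.2 and 283 CPM in siDDX5. In CPM all siDDX5 libraries were above all controls, by 0.25 on the log2 scale (SE 0.11), but the edgeR adjusted p was 0.428 and, with the block, 0.219. In TPM the groups overlapped, at 78.9, 83.5 and 80.6 in control and 111, 81.4 and 76.3 in siDDX5. ADAR, which edits adenosine to inosine in double-stranded RNA and so hides the cell's own RNA from MDA5, leaned the other way. It was at 267, 283 and 279.8 CPM in control and 255, 239 and 248 CPM in siDDX5, without overlap. Its log2 fold change was -0.16 (SE 0.09), at an adjusted p of 0.544 in edgeR.

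The transcripts of ADAR allow a further look, since its p150 form is made from an interferon-inducible promoter and its p110 form from a constitutive one. Transcripts with the upstream start codon of p150 held 11.9%, 16.8% and 16.4% of ADAR counts in control replicates 1, 2 and 3 and 14.5%, 16.3% and 14.5% in siDDX5. Their share was thus 15.03% ± 2.70 in control and 15.1% ± 1.05 in siDDX5 (SD, n = 3), so the means differed by less than the spread. The p110 start held 72.5% ± 5.23 and 72.6% ± 3.42. The quantifier had split reads that fit several of these transcripts, and the error of that step is not in the SD.

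Of the 5 signalling factors, IRF1 came closest to a call and was higher in siDDX5. IRF1, a transcription factor induced by interferon gamma and by NF-kappaB, was at 34.4, 30.6 and 37.8 CPM in control and 41.5, 51.3 and 49.9 CPM in siDDX5. The groups did not overlap, with siDDX5 higher by 0.47 on the log2 scale (SE 0.13, 95% interval 0.18 to 0.76). Its edgeR adjusted p was 0.225, and 0.0579 with the block. The DESeq2 Wald test called it, as did the blocked fit without replicate pair 1.

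As gene sums, the factors nearer to RNA sensing and type I interferon did not move with it. IRF3, the factor that RIG-I signalling activates by phosphorylation and not by transcription, was at 41.3, 35.7 and 40.3 CPM in control and 33.0, 39.9 and 42.1 CPM in siDDX5, with full overlap (log2 fold change -0.03, SE 0.13). STAT2 was at 71.4, 92.7 and 101 CPM in control and 68.5, 77.7 and 86.2 CPM in siDDX5. Its values overlapped, each siDDX5 replicate being below the control of its number, and the log2 fold change was -0.19 (SE 0.15, adjusted p = 0.263 in edgeR with the block). Coding transcripts of STAT2 went both ways. Mean shares of the gene in control and siDDX5 were 29.8% and 45.6% for one of 4405 bases, and 22.7% and 14.9% for one of 3073 bases. IRF9, the DNA-binding partner of STAT2, was at 8.34, 9.83 and 11.3 CPM in control and 8.41 to 12.5 CPM in siDDX5, and its direction changed with the setting. Transcripts annotated as coding held on average 9.16% of IRF9 counts in control and 19.9% in siDDX5, with 15 of its 30 transcripts carrying a type. The coding transcript of 1838 bases was at 11.1, 10.4 and 21.9 estimated counts in control and 23.0, 34.9 and 30.1 in siDDX5. Its log2 fold change was 1.41 (SE 0.44), at an edgeR adjusted p of 0.626. IRF7, the interferon-induced amplifier of the response, was at 5.28 to 5.37 CPM in control and 4.01 to 5.45 CPM in siDDX5, again overlapping, at -0.20 (SE 0.19). Its transcripts annotated as coding held 12.9% to 38.8% of its counts, with 18 of its 34 transcripts carrying a type.

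The antiviral effectors were the group with most negative values. Of 19, 17 were tested, 12 had a negative and 5 a positive log2 fold change, and the median was -0.21. Over all genes tested, 7666 values were negative and 7557 positive. At an unadjusted p under 0.05, OAS3, OASL and DDX60 were lower and none was higher. With the replicate block, DDX60 and OAS3 were called, 2 of the 17, both lower, where 1.45% of all genes tested were called lower.

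DDX60, an interferon-induced helicase reported to assist RIG-I, was at 19.5, 15.9 and 14.8 CPM in control replicates 1, 2 and 3 and at 11.8, 10.1 and 10.2 CPM in siDDX5. Every siDDX5 library was below every control. The gene (ENSG00000137628.16, chr4:168216293-168318807, GRCh38, minus strand) was 1.56-fold lower, a log2 fold change of -0.64 (SE 0.16), with an edgeR adjusted p of 0.160, and of 0.0239 with the block. Its protein-coding transcripts carried 183 to 499 estimated counts per library, 98.3% to 100% of the gene.

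OAS3 makes the 2-5A signal that activates RNase L when it meets double-stranded RNA, as do OAS1 and OAS2. It was at 84.0, 49.7 and 63.6 CPM in control and 57.5, 40.5 and 41.6 CPM in siDDX5. The groups overlap, since siDDX5 replicate 1 lies above control replicate 2, but within each replicate number siDDX5 was lower. The log2 fold change was -0.50 (SE 0.20) at an edgeR adjusted p of 0.392 and, with the block, -0.49 (SE 0.09) at an adjusted p of 0.0317. Replicate 1 was the highest library in both groups.

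The other 3 members of the OAS family were scarce. OASL, which lacks the 2-5A activity and binds RIG-I, was at 2.92, 2.23 and 1.94 CPM in control and 1.09, 1.74 and 1.29 CPM in siDDX5. Its groups did not overlap, and the log2 fold change of -0.78 (SE 0.28) rested on 22.1 to 75.1 counts per library and had an edgeR adjusted p of 0.337. OAS1 was at 0.858, 0.286 and 0.541 CPM in control and 0.501, 0.220 and 0.338 CPM in siDDX5, or 4.1 to 22.1 counts. These values overlap and their 95% interval of -1.80 to 0.43 on the log2 scale leaves changes in either direction. OAS2 was at 1.03 to 1.72 CPM in control and 1.12 to 1.55 CPM in siDDX5.

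The IFIT proteins, which bind foreign RNA ends, are among the most sharply interferon-induced of all genes, and here no member passed the test. IFIT1 was at 7.88, 8.71 and 10.3 CPM in control and 7.03, 8.02 and 7.80 CPM in siDDX5. The groups overlapped, with the siDDX5 values toward the low side, at a log2 fold change of -0.23 (95% interval -0.61 to 0.14). IFIT3, the partner that stabilises IFIT1, was at 19.3, 22.2 and 25.0 CPM in control and 13.5, 17.3 and 20.7 CPM in siDDX5, at -0.37 (SE 0.17, adjusted p = 0.0949 in edgeR with the block). IFIT2 was at 19.4 to 28.4 CPM in control and 21.0 to 29.1 CPM in siDDX5, and IFIT5 at 26.9 to 33.0 CPM and 25.8 to 30.1 CPM, so both ranges almost coincided.

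MX1, a GTPase whose messenger RNA is a common readout of type I interferon, was at 3.71, 4.58 and 4.39 CPM in control and 4.65, 4.08 and 4.73 CPM in siDDX5. The values overlap, and the interval of the log2 fold change was -0.34 to 0.52. Little of this was the coding message. Protein-coding transcripts of MX1 held only 5 to 11 estimated counts per library, or 5.07% to 12.8% of the gene, and most of the rest lay on short transcripts annotated as retained introns. Protein-coding transcripts were also in the minority for MX2, with 15.7% to 29.8% of its counts and most of the rest on retained introns, and for XAF1, with 27.3% to 42.3% and most of the rest on a transcript annotated for nonsense-mediated decay. The level of MX1 by TPM, 17.6 on average, was therefore mostly that of short non-coding transcripts.

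The remaining effectors showed no call. TRIM22, an antiviral ubiquitin ligase, was at 7.37 to 9.02 CPM in control and 9.73 to 10.1 CPM in siDDX5, without overlap and with a log2 fold change of 0.28 (SE 0.15). SAMD9L, a translation repressor, was lower in siDDX5 than in the control of its number in all 3 pairs, at -0.26 (SE 0.14), and its paralog SAMD9 likewise at -0.23 (SE 0.16). RSAD2 was at 0.761 to 0.870 CPM in control and 0.339 to 1.42 CPM in siDDX5. CMPK2, the neighbour of RSAD2, was at 0.139 to 0.233 CPM in control and 0.0550 to 0.108 CPM in siDDX5, at or under 3 counts in part of the libraries, and BST2 at 0.0925 to 0.583 CPM and 0.11 to 0.296 CPM, so no fold is given.

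ISG20, an interferon-induced exonuclease, followed the replicate number more than the group. It was at 2.52, 1.91 and 8.16 CPM in control and at 2.67, 2.84 and 8.57 CPM in siDDX5. In CPM both replicate 3 libraries stood far above the other 4, at about the same height in each group. In TPM siDDX5 replicate 1 also stood high, with 6.67, 4.03 and 14.4 in control and 14.9, 5.41 and 18.7 in siDDX5. For 8 of the 40 tested genes both replicate 3 libraries lay outside the CPM range of the other 4, against 21.8% of all genes tested. They were above for 6 and below for 2, beside 12% and 9.75% of all genes tested.

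In the ISG15 system, the modifier and its conjugating enzymes did not move as a unit. ISG15, a ubiquitin-like protein that interferon raises strongly, was at 10.4, 5.64 and 6.48 CPM in control and 3.70, 6.93 and 4.46 CPM in siDDX5. Control replicate 1 was the highest and siDDX5 replicate 1 the lowest of the 6, and the other values overlapped. The log2 fold change of the gene sum was -0.58 (SE 0.29), at an edgeR adjusted p of 0.496. Coding transcripts of ISG15 went both ways. That of 637 bases was at 203.7, 67.2 and 87.3 estimated counts in control and 16, 75.3 and 1.2 in siDDX5. That of 711 bases had a log2 fold change of 0.59 (SE 0.29), at an edgeR adjusted p of 0.760. The error of splitting reads between them is not in these values. UBE2L6, the E2 enzyme that passes ISG15 on, was at 30.1, 21.9 and 25.3 CPM in control and 28.8, 37.2 and 32.8 CPM in siDDX5. Only the pair of replicate 1 overlapped, and the log2 fold change was 0.35 (SE 0.15), at an edgeR adjusted p of 0.426. The blocked fit without replicate pair 1 called it higher, at 0.57 and an adjusted p of 0.0353. HERC5, the main ISG15 ligase, was at 46.4 to 55.0 CPM in control and 45.8 to 54.1 CPM in siDDX5, the smallest difference of the 40 (95% interval -0.24 to 0.28). HERC6 was low at 2.37 to 2.80 CPM over all libraries. USP18, which removes ISG15 and dampens the interferon receptor, was at 32.1 to 39.7 CPM in control and 37.2 to 56.3 CPM in siDDX5 (log2 fold change 0.33, SE 0.16). USP18 has a near-identical copy in the genome, so its counts are uncertain.

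Among the other induced genes, IFI44 gave the clearest difference of the 43. IFI44, an interferon-induced cytoplasmic protein (ENSG00000137965.10, chr1:78649796-78664078, GRCh38, plus strand), was at 119, 107 and 98.2 CPM in control and 67.8, 63.5 and 49.4 CPM in siDDX5. Every siDDX5 library was below every control, and the pairs fell by similar amounts. The sum over its transcripts was 1.79-fold lower, a log2 fold change of -0.84 (SE 0.14, 95% interval -1.15 to -0.53). Its edgeR adjusted p was 0.0584 without the block, which misses the threshold, and 0.00402 with it. All 9 transcripts of IFI44 that could be tested had a negative log2 fold change, from -1.69 to -0.40, 5 of them at an unadjusted p under 0.05 and none at an adjusted p under 0.05 (lowest 0.379). The main coding transcript, of 1682 bases, was at -0.60 (SE 0.18), a smaller fall than that of the sum. Protein-coding transcripts held 60.8% to 81.5% of its counts, with a mean of 67.7% in control and 77.2% in siDDX5. The rest lay on short processed transcripts, which raise its TPM above what the coding message alone would give.

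IFI44L, its neighbour and paralog, was far scarcer. It was at 1.79, 1.80 and 1.77 CPM in control and 1.58, 1.14 and 1.21 CPM in siDDX5, also without overlap, by -0.44 on the log2 scale (SE 0.25), at an edgeR adjusted p of 0.541. Only 14.6% to 28.5% of its counts lay on protein-coding transcripts. DTX3L and PARP9, partners in an enzyme complex that amplifies the response and neighbours that share a promoter, were both on the high side. DTX3L was at 69.8, 83.8 and 97.7 CPM in control and 101, 105 and 107 CPM in siDDX5, and PARP9 at 59.6 to 64.3 CPM in control and 65.7 to 75.9 CPM in siDDX5. Neither overlapped between groups, and the log2 fold changes were 0.31 (SE 0.13, edgeR adjusted p = 0.406) and 0.17 (SE 0.10). PARP14 was at 40.3 to 59.7 CPM in control and 47.3 to 66.7 CPM in siDDX5. IFI6, a mitochondrial antiapoptotic protein, was at 2.02 to 2.56 CPM in control and 2.57 to 3.79 CPM in siDDX5 (log2 fold change 0.48, SE 0.24). IFI27 (0.928 to 1.38 CPM over all libraries) and IFI35 (0.264 to 0.796 CPM) were low throughout.

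**Figure D3:**
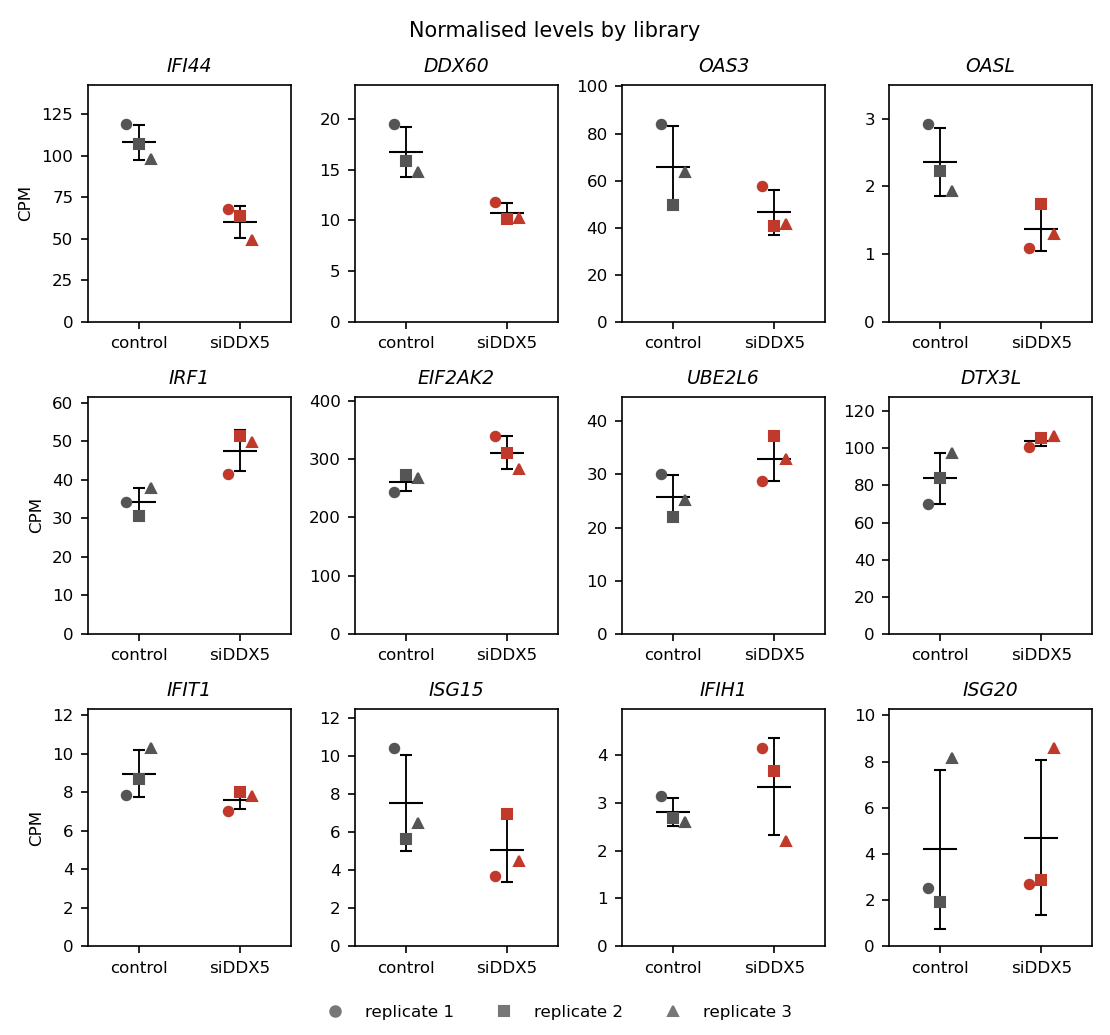
CPM of 12 of the genes in each library, with markers for the replicate number, a bar for the mean and whiskers of 1 SD (n = 3), each axis starting at 0. IFI44 and DDX60 are lower in every siDDX5 library, OAS3 is lower within each replicate number, IFIT1, ISG15 and IFIH1 overlap, and ISG20 is high in both replicate 3 libraries.

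The relative use of transcripts was tested for the 28 genes with at least 2 tested transcripts. None was called by diffSpliceDGE in edgeR, against 1.59% of all genes tested for usage, and none with the block, against 1.21%. None had an unadjusted p under 0.05 either, against 5.37%, the lowest being 0.0602, for ADAR. Without control replicate 2 ADAR was called, and without siDDX5 replicate 2 EIF2AK2 was. Of 140 single transcripts, edgeR called 0, as it did of all transcripts tested (0.0%), and 18 (12.9%) had an unadjusted p under 0.05, against 7.09%.

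Other genes of the pathway were read from the same fit, 96 in 5 lists, of which 71 were tested. None was called in edgeR, against 0.164% of all genes tested, and the median log2 fold change was 0.05. At an unadjusted p under 0.05 there were 12 (16.9%), 5 higher and 7 lower in siDDX5, against 11.4%. With the replicate block, 4 (5.63%) were called, against 2.59%, with GBP1 and SOCS3 higher and TYK2 and TMEM173 lower. These lists were chosen with earlier results of these data known, so the shares describe them and cannot show an excess.

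In the receptor and JAK-STAT list, 11 of 12 genes were tested, and 1 was called in each direction with the block, where 1.14% of all genes tested were called higher and 1.45% lower. SOCS3, a feedback inhibitor of cytokine receptors, was at 34.5, 42.3 and 43.7 CPM in control and 46.6, 79.7 and 71.0 CPM in siDDX5. All siDDX5 libraries were above all controls, replicate 1 the least, by 0.71 on the log2 scale (SE 0.19), with an edgeR adjusted p of 0.20, and of 0.0135 with the block. TYK2, a kinase of the type I interferon receptor, was at 76.6, 75.3 and 67.0 CPM in control and 55.6, 57.1 and 54.3 CPM in siDDX5. In CPM its groups stood apart, by -0.39 on the log2 scale (SE 0.10), with an edgeR adjusted p of 0.195, and of 0.0481 with the block. In TPM they overlapped, at 55.9, 64.9 and 49.3 in control and 48.7, 48.4 and 56.4 in siDDX5. The receptor chain IFNAR1 was at 107 to 135 CPM in control and 134 to 163 CPM in siDDX5 (log2 fold change 0.27, SE 0.13).

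Of the sensing adaptors, 22 of 28 were tested, with 11 positive and 11 negative values. TMEM173, the gene of STING, the adaptor for cytoplasmic DNA, was at 39.1, 31.2 and 34.4 CPM in control and 21.8, 23.0 and 26.9 CPM in siDDX5. Its groups did not overlap, with a difference of -0.55 on the log2 scale (SE 0.14), an edgeR adjusted p of 0.174, and of 0.0492 with the block. TBK1, the kinase of IRF3, leaned the other way, at 33.7, 37.9 and 41.6 CPM in control and 47.1, 44.6 and 57.7 CPM in siDDX5 (log2 fold change 0.40, SE 0.13, adjusted p = 0.0600 in edgeR with the block). DHX58, which encodes the RIG-I relative LGP2 and is strongly interferon-induced, was at 0.509 to 0.619 CPM in control and 0.247 to 0.330 CPM in siDDX5, on 5 to 15 counts per library (log2 fold change -0.97, SE 0.37, edgeR adjusted p = 0.355).

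Among 29 tested interferon-induced genes outside the 43, GBP1 was the only one called with the block. GBP1, a GTPase that responds most to interferon gamma, was at 105, 90.9 and 78.5 CPM in control and 162, 184 and 144 CPM in siDDX5. Every siDDX5 library was above every control, by 0.84 on the log2 scale (SE 0.14), with an edgeR adjusted p of 0.0584, and of 0.00652 with the block. Thus GBP1 and IFI44 differed by about the same amount in opposite directions. ZC3HAV1, the RNA-binding antiviral protein ZAP, was at 102 to 113 CPM in control and 69.3 to 88.3 CPM in siDDX5 (log2 fold change -0.39, SE 0.12), and CMTR1, the cap methyltransferase that marks RNA as self, at 59.1 to 64.1 CPM and 46.2 to 51.5 CPM (-0.35, SE 0.10). Neither was called with the block, with edgeR adjusted p values of 0.0525 and 0.0688.

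**Figure D4:**
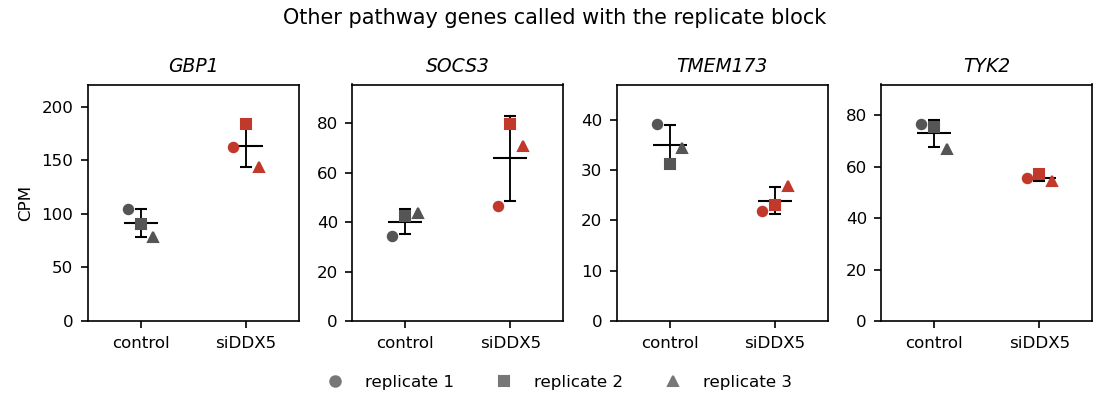
CPM of GBP1, SOCS3, TMEM173 and TYK2 in each library, with markers for the replicate number, a bar for the mean and whiskers of 1 SD (n = 3), each axis starting at 0. The siDDX5 libraries lie above the control libraries for GBP1 and SOCS3 and below them for TMEM173 and TYK2, without overlap.

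Of 16 targets of NF-kappaB, which RNA sensing also activates, 9 were tested and none was called in either fit. Their values leaned upward, with 7 positive and 2 negative and a median log2 fold change of 0.21. At an unadjusted p under 0.05, edgeR had 1, which was higher in siDDX5. With the block it had 4, all higher, where 10.2% of all genes tested were higher. The chemokine CXCL10, among the strongest products of RNA sensing, had at most 1 count in any library. NFKBIA, the inhibitor that NF-kappaB induces as feedback, was at 52.0, 48.9 and 48.8 CPM in control and 55.8, 68.1 and 57.0 CPM in siDDX5, without overlap (log2 fold change 0.27, SE 0.11, edgeR adjusted p = 0.405). TNFAIP3, another feedback inhibitor, was at 90.9 to 127 CPM in control and 117 to 137 CPM in siDDX5, and NFKB2 at 74.1 to 91.1 CPM and 93.6 to 105 CPM.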

How the data were processed

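Per the submitters' processing notes, reads were handled with bcl2fastq 2.20, FastQC 0.11.8, cutadapt 1.11 and kallisto 0.46.0 on GRCh38. The authors deposited an estimated count and a TPM value per transcript. The kit was stranded, and the quantifier's strand setting is not given in the sources used here. Transcripts (188753) were joined to GENCODE 29 genes by identifier (90.0%), symbol or position, covering 99.59% to 99.63% of counts, and summed. Rounded sums were filtered with filterByExpr and tested in edgeR 4.0.16 (R 4.3.3; TMM, quasi-likelihood, Benjamini-Hochberg over 15223 genes, called at 0.05). CPM values are TMM-normalised. Confidence intervals (95%) use the fit's SE, which leaves out the error of dividing reads among transcripts.

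Same-numbered libraries, numbered in the titles, deviated together from their group means. Correlations were 0.21, 0.27 and 0.58 for replicates 1, 2 and 3 over 15223 genes, and -0.35 to 0.08 for unlike numbers. Deviations within a group cancel out, so positive values for like numbers force negative ones elsewhere. The labels state no pairing, and the replicate block is printed beside results whose call it changes. DESeq2 1.42.0, limma 3.58.1 on log2(TPM + 1) or log2(TPM + 0.1), other filters, the primary annotation alone and left-out libraries were alternatives. Leaving out both replicate 3 libraries, or a replicate pair in the blocked fit, was added after seeing the data. On simulated counts with 200 genes changed by 1 on the log2 scale, among 15043 genes edgeR recovered 82.5% with 10 false calls and DESeq2 76.5%. With replicate effects added to the simulation (15067 genes), edgeR recovered 66% with 0 false calls. Once the block was in the fit it recovered 87% with 8 false calls. The simulated effects were shared by libraries of like number, so this gain was built in and cannot show pairing in the real libraries. No tested member changed by as much as the planted genes.

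The members and lists were chosen with earlier results of these data known. Named were members with an unadjusted p under 0.05 or called with the block, the 3 highest by TPM, 13 fixed by name, and, of each pathway list, called genes and the 3 with the smallest p. Other members are given by ranges. Values of 2 listed genes are not reported here.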

Additional observations from a re-analysis of the deposited data

How the results depend on the processing

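All genes called numbered 25, against 323 by DESeq2, 136 with no filter, 1, 1 and 2 with limma-trend on log2(TPM + 1), log2(TPM + 0.1) and log2(TPM + 1) without filter, 395 with the replicate block, 4 without both replicate 3 libraries, 0 to 15 leaving out 1 library, and 968, 1241 and 211 with the replicate block without pair 1, 2 or 3. Without control replicate 1 or siDDX5 replicate 1, edgeR called 0, with 1244 and 2042 genes at an unadjusted p under 0.05. Of the 40 tested members, 0 were called by edgeR, 3 by DESeq2 (DDX60, IFI44 and IRF1), 1 with no filter (IFI44), 3 with the replicate block, and 5, 5 and 1 with the block without pair 1, 2 or 3. Leaving out 1 library left 0 called, with 5 to 8 at an unadjusted p under 0.05. Of the pathway genes, 0 were called by edgeR, 3 by DESeq2 (GBP1, SOCS3 and TMEM173), 1 with no filter (GBP1), 4 with the replicate block, and 4, 8 and 3 with the block without pair 1, 2 or 3. For transcript usage the count was 0 to 1 leaving out 1 library. DDX5 was at -1.44 (adjusted p = 0.0850), -1.45 (0.0928) and -1.44 (0.272) in those 3 limma fits, which no longer called it, and at -1.54 to -1.30 leaving out 1 library, not called without control replicate 1, siDDX5 replicate 1 or siDDX5 replicate 2. Of 32 named genes, 28 kept their sign in every fit. Leaving out 1 library gave MAVS -0.070 to 0.000, IRF3 -0.090 to 0.070 and IRF9 -0.113 to 0.175. The signs turned for MAVS (0.000) without siDDX5 replicate 2 and (0.005) with the block without pair 1, for MX1 (-0.027) in the latter, and for IRF3 to 0.019 without control replicate 1, 0.070 without siDDX5 replicate 1 and 0.112 with the block without pair 1. IRF9 turned to -0.154, -0.164 and -0.154 in the 3 limma fits, -0.048 without control replicate 1, -0.113 without siDDX5 replicate 3, -0.009 without both replicate 3 libraries, and -0.028 and -0.006 with the block without pair 1 or 3. The cause of these changes was not tested, and the replicate block changed no other call of a named gene than those given beside it. At this depth, genes near 3 counts per library, such as CMPK2 and BST2, could not be compared.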
